A study of Mus musculus with 11 samples.

Results

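The 5p arms of the miR-290 to miR-295 cluster were taken from the small RNA libraries of mouse embryonic stem (mES) cells with and without Trim71, an RNA-binding protein of stem cells and the early embryo. They were chosen by name, as every row of the hairpins from miR-290 to miR-295, with any letter, that is named as a 5p arm. This rule found 9 of the 592 miRNAs of the table, and the table holds the 9 matching 3p arms too.

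The cells were male mES cells of strain C57BL/6, grown in FCS and LIF. Both groups carried the same floxed Trim71 allele and a Cre recombinase fused to the estrogen receptor, expressed from Rosa26. Trim-/- cells had received 4-hydroxytamoxifen (4-OHT) at 500 nM for 2 days and were then kept in culture for at least 7 days according to the labels, while Trimfl/fl cells had received the solvent. The study's methods give another dose of 4-OHT and another culture time. By that design the agent and the deletion cannot be told apart. All cells were sorted magnetically for the stem cell surface antigen SSEA-1 before harvest. The 11 libraries came from 2 clones, with 1 library of each genotype on days 1, 5 and 6 (clone 1) and on days 3 and 4 (clone E3), and a Trimfl/fl library of clone E3 alone on day 2.

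The cluster is among the most abundant miRNA sources of undifferentiated mouse ES cells and is silenced when they differentiate. Each hairpin is cut into a duplex, of which either arm can be loaded into an Argonaute protein, and bases 2 to 8 of the loaded strand, the seed, choose its targets. The arm best known for promoting the ES cell cycle is the 3p arm with the AAGUGCU seed (miR-291a-3p, miR-294-3p and miR-295-3p), and the 5p arms carry other seeds. The sequences of the 9 5p arms are given here because members differ in their seeds, and because some are so alike that their reads may not be separable. They run 5′ to 3′ as listed by RefSeq on GRCm38.p6, with the seed in capitals. All 9 names had an entry there, with the miR-292-5p of the table matched to the miR-292a-5p of gene Mir292.
miR-290a-5p: aCUCAAACuaugggggcacuuu
miR-292-5p: aCUCAAACugggggcucuuuug
miR-293-5p: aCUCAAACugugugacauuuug
miR-292b-5p: aCUCAAAAccuggcggcacuuuu
miR-294-5p: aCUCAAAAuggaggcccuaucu
miR-295-5p: aCUCAAAUguggggcacacuuc
miR-291a-5p: cAUCAAAGuggaggcccucucu
miR-291b-5p: gAUCAAAGuggaggcccucucc
miR-290b-5p: gCUUAAAAcuaggcggcacuuu

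The 9 sequences fell into 5 seed groups. The letters CUCAAA at bases 2 to 7 were common to miR-290a, miR-292, miR-292b, miR-293, miR-294 and miR-295, and among the 1679 mature miRNA names of the RefSeq table these 6 were the only ones with them (0.357%). None of the 5 full seeds occurred in a mature miRNA outside the 9 members. As a mean of the shares in the 10 libraries, the seed CUCAAAC of miR-290a, miR-292 and miR-293 made up 94.4% of the summed 5p arms. The seed AUCAAAG of miR-291a and miR-291b made up 2.66%, CUCAAAA of miR-292b and miR-294 made up 2.42%, CUCAAAU of miR-295 made up 0.480% and CUUAAAA of miR-290b made up 0.0143%. The G and C content ran from 36.4% in miR-293-5p to 59.1% in miR-291b-5p.

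The 9 mature sequences lie within 2162 bases of chromosome 7 on GRCm38.p6. In order along the chromosome they are miR-290a-5p (chr7:3218639-3218660), miR-290b-5p (chr7:3218674-3218695), miR-291a-5p (chr7:3218932-3218953), miR-292-5p (chr7:3219200-3219221), miR-292b-5p (chr7:3219237-3219259), miR-291b-5p (chr7:3219494-3219515), miR-293-5p (chr7:3220356-3220377), miR-294-5p (chr7:3220655-3220676) and miR-295-5p (chr7:3220779-3220800). Of the members, 7 are on the plus strand, and miR-290b-5p and miR-292b-5p are on the minus strand. In GENCODE M21 the hairpins Mir290a and Mir290b overlap each other, on opposite strands, and no further gene. The other 7 hairpins lie in an untranslated exon part of a protein-coding transcript of Nlrp12, a gene of the minus strand (chr7:3218784-3249740).

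The deposited values are read counts that the authors normalized with DESeq2, corrected for batch and raised to 1 where they were lower. The number of reads behind a value is unknown. In each member other than miR-292-5p the same-day sum of the 2 genotypes was constant over days to within 0.000314%, and in miR-292-5p, of which 3 values are rounded, to within 0.337%. A high value on one side of a day therefore stands opposite a low value on the other, both genotypes have nearly the same SD, and each day gives 1 difference, so n = 5 differences. In all members the library of day 2 lay within 0.0301% of the Trimfl/fl average of the remaining days, and it was left out. None of the members' values was at the floor of 1. Library totals ran after normalization from 3751520 to 5551710 in Trim-/- and from 2742670 to 4332530 in Trimfl/fl cells, and are not a depth. The table holds miRNAs alone, so that the deletion of Trim71 could not be checked in it.

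Levels of the 5p arms spanned more than 3 orders of magnitude, and miR-292-5p had the highest mean of all 592 miRNAs. Its mean over the 10 libraries with a same-day partner was 884570 ± 300569 normalized read counts (SD, n = 10). The next member, miR-293-5p, was 5th of 592 with 189560 ± 46177. It was followed by miR-292b-5p (25446 ± 9340, rank 19), miR-291a-5p (20266 ± 4003, rank 23), miR-291b-5p (6474 ± 891, rank 50), miR-290a-5p (5676 ± 1371, rank 56), miR-295-5p (4778 ± 1545, rank 64) and miR-294-5p (1592 ± 325, rank 111). The lowest was miR-290b-5p with 158 ± 35.6, rank 284. The order was the same in 10 of 10 libraries except at 3 places. miR-292b-5p was above miR-291a-5p in 7 libraries, miR-291b-5p above miR-290a-5p in 6 and miR-290a-5p above miR-295-5p in 7, so that these neighbours did not differ beyond their spread.

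**Figure D1:**
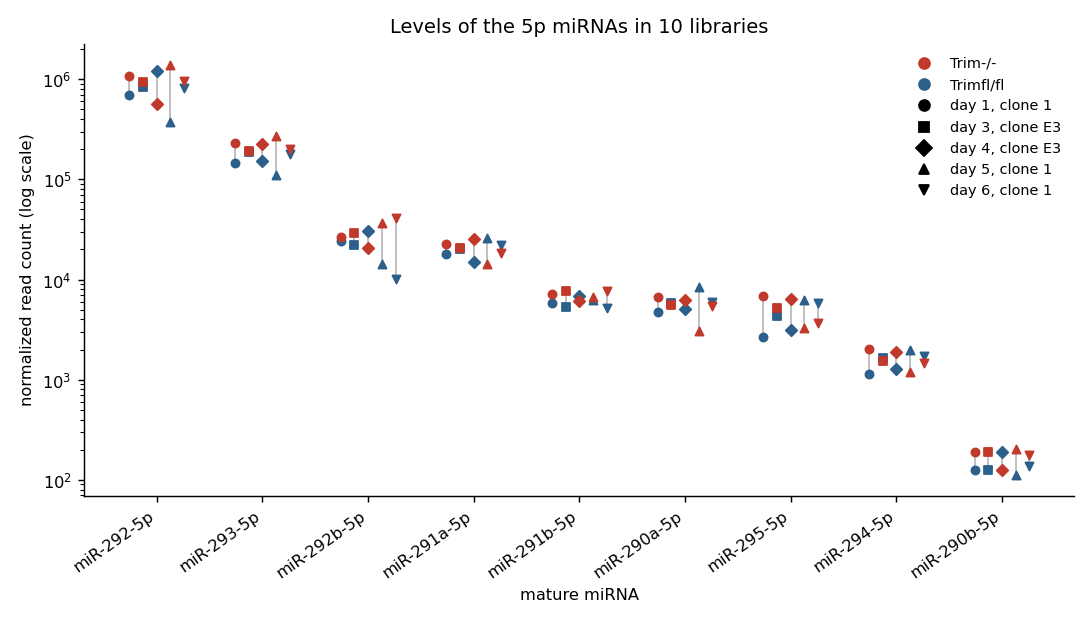
Normalized read counts (vertical log axis) of the 9 5p miRNAs (horizontal axis, from the highest to the lowest mean) in 10 libraries, with red points for Trim-/-, blue points for Trimfl/fl, one symbol per day and a grey line joining the 2 genotypes of a day. miR-292-5p lies between 371018 and 1400000 and miR-290b-5p between 111 and 204, and the genotypes overlap in each member except miR-293-5p.

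The first comparison asked whether the level of a 5p arm differed between Trim-/- and Trimfl/fl cells of the same day. None of the 9 5p arms passed the thresholds used in the study (unadjusted p under 0.05 and a change of more than 1.5-fold), against 32 of all 592 miRNAs (5.41%). None reached an adjusted p under 0.05, as was the case for all 592 miRNAs (0%), with a smallest adjusted p of 0.607 (limma on log2(value + 1) with genotype and day, Benjamini-Hochberg). The count at an unadjusted p under 0.05 was 0 of the 9 members and 32 of all miRNAs. Fitted levels were higher in Trim-/- cells for 7 members and lower for 2, with a median log2 difference of 0.26 beside 0.03 for all miRNAs. That median was −0.01 when each library was divided by its total and 0.01 when it was divided by its total without the cluster.

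Of the 3 members with the seed CUCAAAC, miR-292-5p varied most from day to day. In Trim-/- cells its values for days 1, 3, 4, 5 and 6 were 1070000, 941810, 566590, 1400000 and 950359. In Trimfl/fl cells of the same days it was 702557, 825960, 1200000, 371018 and 817411. The highest and the lowest of the 10 values both came from day 5, day 4 ran the other way, and the groups overlapped. The means were 985752 ± 298990 in Trim-/- and 783389 ± 297119 in Trimfl/fl cells (SD, n = 5). The fitted log2 difference was 0.37 (SE 0.45, 95% interval −0.72 to 1.46, limma adjusted p = 0.720), higher in Trim-/- on 4 of 5 days. Leaving out day 5 turned it to −0.02, and division by library totals lowered it to 0.099.

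miR-293-5p was the member that was higher in Trim-/- cells on all 5 days. Its level in Trim-/- cells was 232478, 193332, 226875, 268655 and 199086 on days 1, 3, 4, 5 and 6. The Trimfl/fl cells of these days had 146643, 185789, 152245, 110465 and 180034. The groups did not overlap, which the constant same-day sums impose on any member that is higher on all days, and the closest values were those of day 3. Being higher in Trim-/- on all 5 days was found in 31 of 592 miRNAs (5.24%) and in this 1 of the 9 members. The means were 224085 and 155035 (SD 30147 for both, n = 5). The log2 difference of 0.54 had an SE of 0.28 and a 95% interval from −0.14 to 1.23 (limma adjusted p = 0.607), and it ranged from 0.36 to 0.67 when single days were left out and was 0.28 with division by library totals. As a share of the library total, miR-293-5p was higher in Trim-/- on only 3 of 5 days (5.08% ± 0.628 against 4.21% ± 0.570, SD, n = 5; exact permutation within days, two-sided, p = 0.25, where 5 pairs cannot go below 0.062). The shares overlapped, with a lowest Trim-/- share of 4.58% and a highest Trimfl/fl share of 4.81%.

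miR-290a-5p, with the same seed, had values of 6653, 5576, 6312, 3028 and 5400 in Trim-/- cells on days 1, 3, 4, 5 and 6, and of 4699, 5776, 5040, 8324 and 5952 in Trimfl/fl cells. It was lower in Trim-/- on days 3, 5 and 6, by most on day 5 (−1.46 on the log2 scale), the day on which miR-292-5p and miR-293-5p were 1.92 and 1.28 higher. The groups overlapped. The means were 5394 and 5958 (SD 1419 for both, n = 5), and the log2 difference was −0.16 (SE 0.36, 95% interval −1.03 to 0.70, limma adjusted p = 0.860). Leaving out day 5 turned it to 0.16, and division by library totals took it to −0.43.

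Of the pair with the seed CUCAAAA, miR-292b-5p was the more abundant. In Trim-/- cells it was 26388, 28858, 20616, 36519 and 40746 on days 1, 3, 4, 5 and 6. The Trimfl/fl values were 24504, 22034, 30275, 14373 and 10146. The groups overlapped, with day 6 giving both the highest and the lowest value. The means were 30625 and 20267 (SD 8038 for both, n = 5), and the log2 difference was 0.66 (SE 0.43, 95% interval −0.39 to 1.71, limma adjusted p = 0.645), higher in Trim-/- on 4 of 5 days. Leaving out day 6 lowered it to 0.32, and it was 0.39 with libraries divided by their totals. miR-294-5p, which shares its seed and is the minor arm beside the abundant miR-294-3p, was 2048, 1531, 1895, 1199 and 1462 in Trim-/- cells. It was 1136, 1653, 1289, 1985 and 1722 in Trimfl/fl cells, so that it was higher in Trim-/- only on days 1 and 4. Its log2 difference was 0.07 (SE 0.32, limma adjusted p = 0.939), and it was negative with either division by library totals.

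The pair with the seed AUCAAAG, miR-291a-5p and miR-291b-5p, are 22 bases long and identical at 20 of them. They differ by C1G and U22C from miR-291a-5p to miR-291b-5p, counted from the 5′ end, both outside the seed. How reads that could match both were assigned is not given in the sources used here, so their separate levels are uncertain. miR-291a-5p was 22461, 20420, 25639, 14394 and 18287 in Trim-/- cells on days 1, 3, 4, 5 and 6. It was 18071, 20113, 14893, 26138 and 22246 in Trimfl/fl cells, and the genotype means of 20240 and 20292 (SD 4246 for both, n = 5) differed by far less than the spread. The 95% interval of its log2 difference ran from −0.77 to 0.76 (limma adjusted p = 0.993), and division by library totals gave −0.27. miR-291b-5p had 7156, 7605, 6114, 6642 and 7767 in Trim-/- cells, and 5793, 5343, 6834, 6307 and 5182 in Trimfl/fl cells. It was higher in Trim-/- on each day except day 4, with means of 7056 and 5892 (SD 685 for both, n = 5) and a log2 difference of 0.26 (SE 0.25, 95% interval −0.34 to 0.86). Divided by library totals, that difference was −0.01.

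The remaining seeds belong to 1 member each. miR-295-5p was 6873, 5212, 6441, 3284 and 3699 in Trim-/- cells and 2684, 4344, 3116, 6272 and 5857 in Trimfl/fl cells on days 1, 3, 4, 5 and 6. It was higher in Trim-/- on days 1, 3 and 4 and lower on days 5 and 6, and its same-day log2 differences ran from −0.93 to 1.36. The fitted difference was 0.21 (SE 0.43, limma adjusted p = 0.845), and it was negative with either division by library totals, as well as without the pair of day 1. miR-290b-5p, the lowest member, was 189, 190.1, 125, 204 and 178 in Trim-/- cells and 126, 125, 190.4, 111 and 136.8 in Trimfl/fl cells. The libraries of day 4 were reversed against the other 4 days. The means were 177 and 138 (SD 30.7 for both, n = 5), with a log2 difference of 0.36 (SE 0.30, 95% interval −0.37 to 1.10, limma adjusted p = 0.652). Without the pair of day 4 it was 0.61 (limma adjusted p = 0.385), past both thresholds. Leaving out day 5 lowered it to 0.24, and division by library totals to 0.096.

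By day, 9 of 9 members were higher in Trim-/- cells on day 1, 7 on day 3, and 5 on each of days 4, 5 and 6. The median of the members' differences was 0.58, 0.19, 0.32, 0.07 and 0.15 on these days, while the median of all miRNAs lay between −0.02 and 0.02. The 9 3p arms of the cluster had medians of 0.56, 0.27, 0.30, 0.24 and 0.26 on the same days, higher than the 5p arms on days 3, 5 and 6. On days 3, 4, 5 and 6 the members went both ways, on day 3 with miR-290a and miR-294 lower. On days 5 and 6, miR-290b, miR-291b, miR-292, miR-292b and miR-293 were higher in Trim-/- cells and miR-290a, miR-291a, miR-294 and miR-295 were lower. On day 4 the same 4 miRNAs were higher together with miR-293-5p, and miR-290b, miR-291b, miR-292 and miR-292b were lower.

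**Figure D2:**
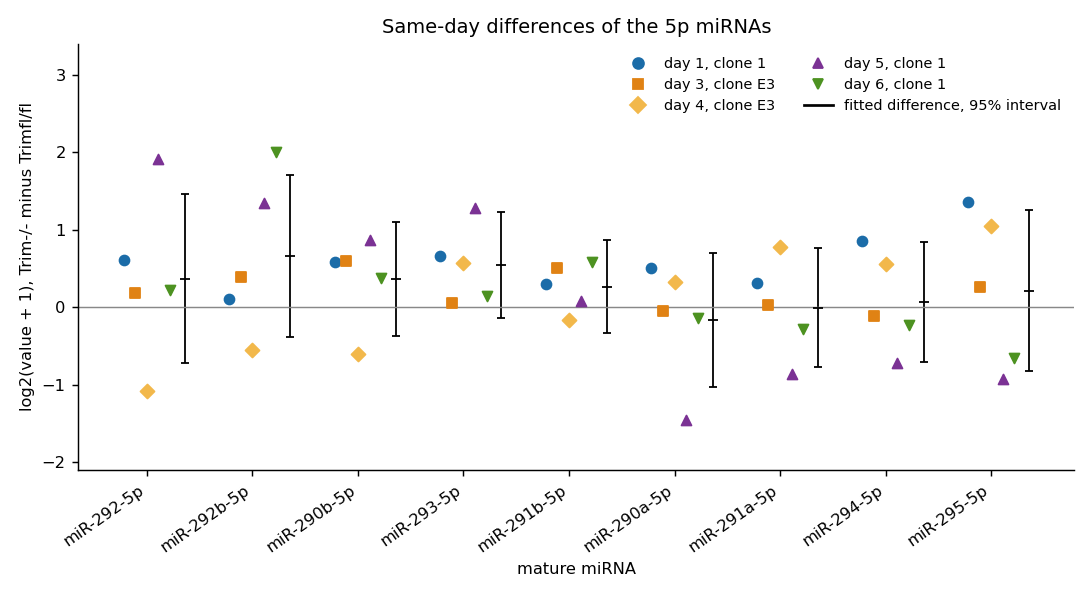
Same-day difference of log2(value + 1), Trim-/- minus Trimfl/fl (vertical axis), of the 9 5p miRNAs (horizontal axis), with one symbol and colour per day and the fitted difference with its 95% interval in black. Each interval includes 0, miR-293-5p is above 0 on all 5 days, and day 5 ranges from −1.46 in miR-290a-5p to 1.92 in miR-292-5p.

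Across the 10 libraries, on the log2(value + 1) scale, miR-290a, miR-291a, miR-294 and miR-295 varied together, with Pearson's r from 0.73 to 0.96 over their 6 pairs, the closest being miR-294-5p with miR-295-5p. miR-290b, miR-292 and miR-292b formed a second set, with r from 0.62 to 0.88 over 3 pairs. Between the sets r was negative in all 12 pairs, from −0.79 to −0.26. miR-291b-5p and miR-293-5p were placed in neither set. With the second set, r ran from 0.35 to 0.73 for miR-291b-5p and from 0.44 to 0.64 for miR-293-5p. With the first set, it ran from −0.24 to −0.05 and from −0.51 to 0.07. These sets were chosen after their values were seen, the libraries of a day mirror each other so that 10 libraries hold 5 differences, and all members share the scaling of their library. Members of 1 seed thus fell into different sets, as did miR-290a-5p and miR-292-5p (r = −0.72), and miR-292b-5p and miR-294-5p (r = −0.53).

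The genotype difference was next compared between the clones, 3 days of clone 1 against 2 days of clone E3. In miR-292-5p it averaged 0.91 in clone 1 (0.22 to 1.92) and −0.45 in clone E3 (−1.08 to 0.19), a difference of 1.36 (SE 0.79, adjusted p = 0.645 for the limma interaction). In miR-292b-5p it averaged 1.15 in clone 1 and −0.08 in clone E3 (difference 1.24, SE 0.78, limma adjusted p = 0.648). miR-290a-5p and miR-291a-5p had the opposite order, at −0.37 and −0.28 in clone 1 and 0.14 and 0.40 in clone E3. None of the 9 members had an interaction at an unadjusted p under 0.05, against 33 of 592 miRNAs (5.57%).

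The second comparison concerned the share of the library held by the 5p arms. Such a share is unchanged by a further rescaling of a library's deposited values. The authors' own scaling came before their batch correction, so it need not cancel in the share. The 9 5p arms together made up 31.7%, 28.6%, 22.9%, 31.2% and 28.2% of the summed values in Trim-/- cells on days 1, 3, 4, 5 and 6. In Trimfl/fl cells they made up 24.1%, 27.7%, 32.6%, 19.9% and 27.9%. The highest and the lowest share were both in Trimfl/fl cells, and the groups overlapped. The means were 28.5% ± 3.50 and 26.4% ± 4.76 (SD, n = 5), a difference of 2.09 percentage points with an SD of 8.06 over the days. Leaving out day 5 gave −0.22 and leaving out day 4 gave 5.04 percentage points, so that its sign rested on 1 day.

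miR-292-5p alone was 21.8% ± 4.04 of the library in Trim-/- and 20.6% ± 5.14 in Trimfl/fl cells (SD, n = 5; exact permutation within days, two-sided, p = 0.6875). It made up 76.0% of the summed 5p arms in Trim-/- and 77.1% in Trimfl/fl cells, and with miR-293-5p 94.2% and 93.5%. Without miR-292-5p the other 5p arms held 6.69% ± 0.743 and 5.84% ± 0.631. The whole cluster, both arms together, held 58.0% ± 1.65 of the library in Trim-/- and 57.5% ± 1.06 in Trimfl/fl cells, a narrower range (55.3% to 59.4%) than that of the 5p arms. Within the cluster the 5p arms made up 33.6% to 56.6%, on average 49.2% ± 6.50 in Trim-/- and 46.0% ± 8.51 in Trimfl/fl cells.

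**Figure D3:**
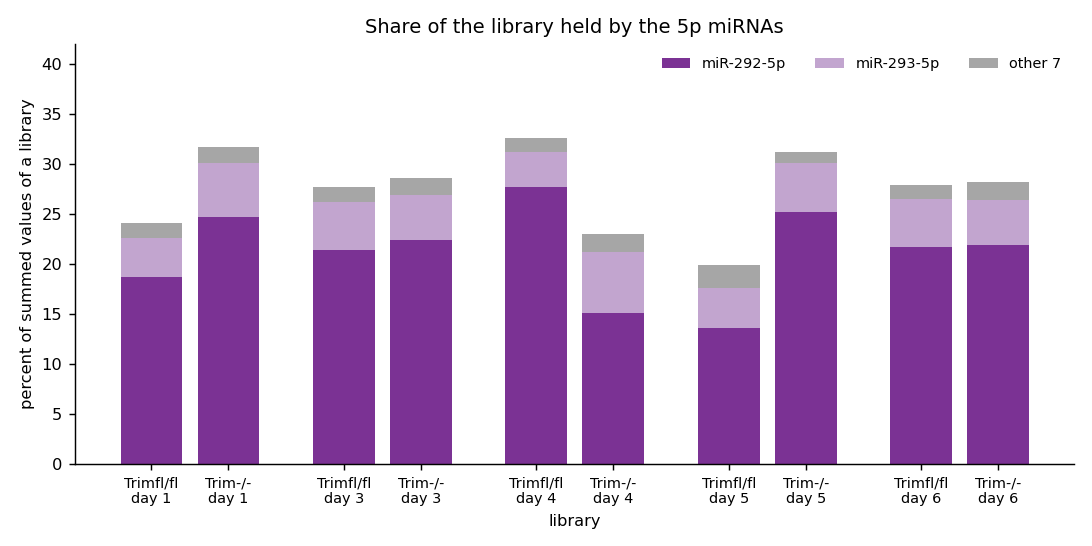
Share of the summed values of a library, in percent (vertical axis), held by miR-292-5p, miR-293-5p and the other 7 5p miRNAs in each of 10 libraries (horizontal axis, by day and genotype). The stacked bars reach from 19.9% (Trimfl/fl, day 5) to 32.6% (Trimfl/fl, day 4), and most of each bar and of the range is miR-292-5p.

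The third comparison set each 5p arm against the 3p arm of its hairpin. The 5p arm was the higher one in 4 of the 9 hairpins by mean log2 ratio, and in 91 of the 179 hairpins with both arms (50.8%). In miR-290a the 5p arm was 91.6% of the hairpin (85.1% to 94.9% over 10 libraries) and in miR-292 84.3% (81.6% to 86.8%), higher than the 3p arm in 10 of 10 libraries each. In miR-291b it was 65.4% (49.4% to 86.0%), higher in 9 libraries, and in miR-292b 51.2% (32.6% to 61.0%), higher in 7. miR-293 was 38.1% 5p, lower than its 3p arm in all 10 libraries. The 5p arms of miR-291a (4.42%), miR-290b (3.29%), miR-295 (3.07%) and miR-294 (1.47%) were the lower ones in all 10 libraries, and 3 of these 4 hairpins are those with the 3p seed AAGUGCU. The shares of miR-291a and miR-291b depend on how reads of their near-identical 5p arms were assigned, and those of miR-290a, miR-290b, miR-292 and miR-292b on whether reads were counted by strand, and neither was tested.

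**Figure D4:**
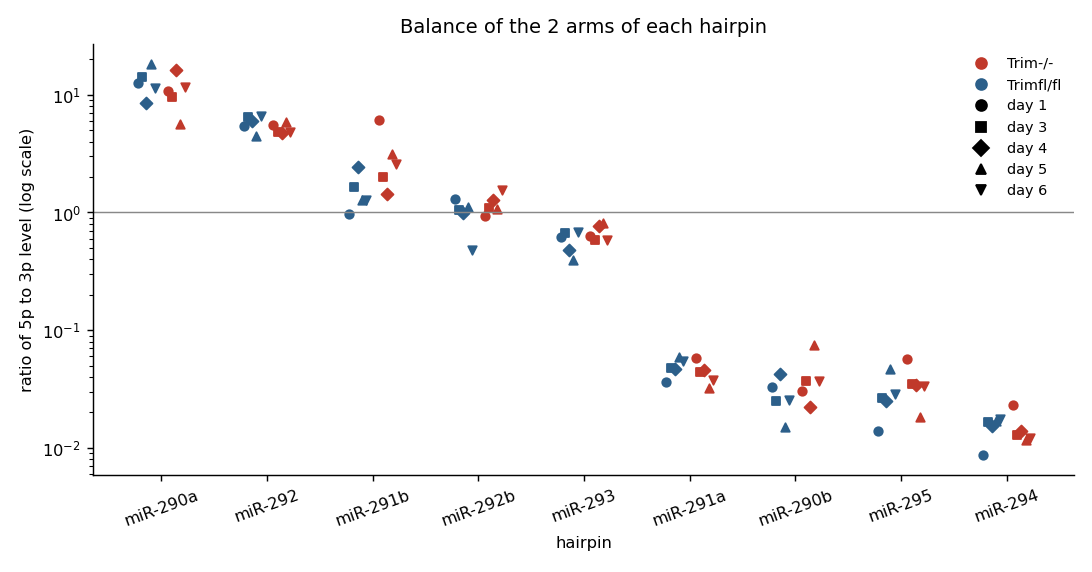
Ratio of the 5p to the 3p level (vertical log axis, grey line at 1) of the 9 hairpins (horizontal axis, ordered by the mean 5p share), in Trimfl/fl (blue, left) and Trim-/- libraries (red, right) with one symbol per day. Ratios run from 0.00863 in miR-294 to 18.4 in miR-290a, and miR-291b spreads from 0.978 to 6.16.

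The arm ratio passed the thresholds in 0 of the 9 hairpins, against 3 of 179 (1.68%), and no adjusted p was under 0.835 (limma on the log2 ratio, genotype and day, all 179 hairpins). The count at an unadjusted p under 0.05 was also 0 of 9 and 3 of 179. miR-291b had the widest range of 5p shares over the 10 libraries. Its ratio of 5p to 3p was 6.16, 1.98, 1.43, 3.16 and 2.58 in Trim-/- cells on days 1, 3, 4, 5 and 6, and 0.978, 1.64, 2.42, 1.27 and 1.27 in Trimfl/fl cells. It was higher in Trim-/- on each day except day 4, and the groups overlapped. The log2 ratio difference was 0.90 (SE 0.55, 95% interval −0.42 to 2.23, limma adjusted p = 0.835). Without the day block the same 0.90 passed the thresholds (limma adjusted p = 0.496), in a fit that treats the libraries of a day as independent. The 1.32 without the pair of day 4 passed too (limma adjusted p = 0.589). Leaving out day 1 lowered it to 0.46 (limma adjusted p = 0.995).

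Where all 9 5p arms were higher in Trim-/- cells, on day 1, 4 of the 3p arms were lower. They were miR-291a-3p (−0.34 on the log2 scale), miR-291b-3p (−2.35), miR-294-3p (−0.59) and miR-295-3p (−0.67), while their 5p arms were 0.31, 0.30, 0.85 and 1.36 higher. In miR-291a and miR-294 day 1 was the only 1 of the 5 days with a higher ratio of 5p to 3p in Trim-/-. In miR-291b and miR-295 that ratio was higher in Trim-/- on 4 days. Over the 10 libraries, on the same log2 scale, the arms of miR-292 varied together (r = 0.94), as did those of miR-292b (r = 0.67) and miR-293 (r = 0.57), and r was 0.39 in miR-291a. The arms of miR-294 (r = −0.06), miR-295 (r = −0.05), miR-290a (r = −0.11), miR-291b (r = −0.43) and miR-290b (r = −0.45) did not. The median over the 9 hairpins was −0.05 and over all 179 hairpins 0.31, and both arms share library and scaling.

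The 2 hairpins on the minus strand, Mir290b and Mir292b, lie opposite Mir290a and Mir292, so that their mature sequences are close to reverse complements of mature sequences on the plus strand. The mature miR-290b-5p lies over all of its 22 bases opposite miR-290a-3p, which reads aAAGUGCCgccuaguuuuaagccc with the seed in capitals. Whether reads were counted by strand is not given in the sources used here, and without strand such reads cannot be told apart. miR-290b-5p was 0.246 to 0.388 times the level of miR-290a-3p over 10 libraries, with r = 0.78. Its r was higher with miR-292-3p (0.97) and miR-292-5p (0.88), which do not lie opposite it, so such an r is not particular to opposite strands. The opposite pairing was tighter on the other arm. miR-290b-3p, opposite miR-290a-5p over 21 of its 22 bases, was 0.822 to 0.937 times its level (r = 0.99).

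At the Mir292 locus, miR-292b-3p lies opposite miR-292-5p over 19 of its 21 bases and was 0.0244 to 0.0348 times its level (r = 0.99). The levels of these partners changed together from day to day in both genotypes. miR-292b-5p lies over its 23 bases opposite the Mir292 hairpin. It was 0.0815 to 0.206 times the level of miR-292-3p (r = 0.80), and its lowest ratio was that of the Trimfl/fl library of day 6, the lowest miR-292b-5p value.

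**Figure D5:**
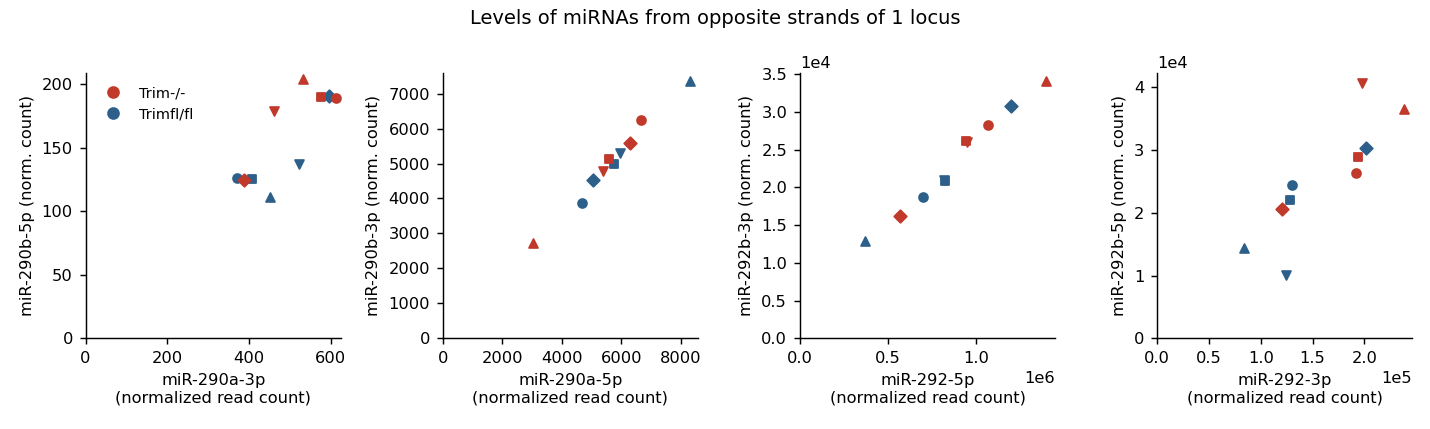
Normalized read counts of 4 miRNAs of the minus-strand hairpins Mir290b and Mir292b (vertical axes) against those of a miRNA from the plus-strand hairpin at the same place (horizontal axes) in 10 libraries, red for Trim-/- and blue for Trimfl/fl, with one symbol per day as in the plot of levels. The points of miR-290b-3p and miR-292b-3p fall close to a line (r = 0.99 for both), and those of miR-290b-5p (r = 0.78) and miR-292b-5p (r = 0.80) scatter more.

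Of the miRNAs outside the cluster with a mean of at least 100 (311 miRNAs), miR-5099, miR-1968-5p and miR-361-3p were most like the summed 5p arms, with r of 0.98, 0.98 and 0.97 over the 10 libraries with day means removed. The same-day log2 differences of the summed 5p arms were 0.60, 0.17, −0.72, 1.67 and 0.23 on days 1, 3, 4, 5 and 6. Those of miR-361-3p were 0.73, 0.15, −0.51, 2.56 and 0.58. These correlations rest on 5 mirrored pairs, and the summed 5p arms differed most on days 4 and 5.

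Other miRNA groups were counted in the same fit. Of the 9 3p arms of the cluster 0 passed the thresholds in either direction. Their median log2 difference was 0.13, with 6 higher and 3 lower in Trim-/-. Of the 9 arms of miR-302a to miR-302d and miR-367, the other ES cell cluster, 0 passed. All 9 of these had a lower fitted level in Trim-/-, with a median of −0.64. Their summed level ran from 8321 to 14421 in Trim-/- and from 14066 to 20166 in Trimfl/fl cells. Of the 9 let-7 and miR-98 5p arms, which accumulate on differentiation and of which let-7 represses Trim71, 1 passed in the higher direction and 0 in the lower, with a median of 2.24. All 9 let-7 and miR-98 arms had a higher fitted level in Trim-/-. The median of 2.24 came from day 6, where 7 Trimfl/fl values were at the floor. Leaving out day 6, an alternative added after the data were seen, gave a median of 0.31 and 1 arm past the thresholds. The sums on day 6 were 96158 in Trim-/- and 701 in Trimfl/fl cells, beside 34333 to 39837 and 27374 to 32877 on the other days. On those other days the 2 genotypes added up to a nearly constant total, and the Trim-/- sum of day 6 alone was above it. Under that total the Trimfl/fl partner of day 6 would be negative and raised to the floor. The floor values of day 6 therefore do not measure an absence of let-7. Neural miRNAs (0 of 8 past the thresholds, 7 of 8 with a higher fitted level in Trim-/- and a median of 0.55, sums of 5927 to 9249 against 3393 to 6715) and fibroblast miRNAs without miR-21a (sums of 13640 to 35538 against 13413 to 35331) were also present after the sort, and 0 of the 10 fibroblast arms passed, with a median of 0.19. miR-21a-5p was at 262646 to 796335 in Trim-/- cells and at 235913 to 329230 in Trimfl/fl cells of days 1, 3, 4 and 6. It was listed at the floor of 1 in the Trimfl/fl library of day 5, the library with the lowest miR-292-5p. The Trim-/- value of miR-21a-5p on day 5 was above the constant same-day sum of both genotypes on days 1, 3, 4 and 6. Under that sum the Trimfl/fl value would be negative and raised to 1, so it does not measure an absence of miR-21a-5p. The part of these other cell type markers and of the Trimfl/fl library of day 5 in the levels of the 5p arms was not tested, beyond the values without day 5. Fewer cells of a type and less miRNA per cell cannot be told apart in these bulk libraries.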

How the data were processed

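Small RNA of 11 libraries was analysed from 1 table of 592 mature miRNAs. The authors trimmed 50 bp reads, aligned them with Bowtie2 to miRBase, used DESeq2 for normalization, removed batch effects, put a floor of 1 under all values and dropped miRNAs with low group means. The unit of the deposited signal is therefore a normalized read count. The labels name another library kit than the study's methods. Raw counts were not used here, depth is unknown, and precision comes from 5 same-day pairs. No label says that days were separate inductions, so p-values measure the spread between these samples, which may be technical.

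The members and lists were chosen with earlier results of these data known. All 9 members are named, with their 3p arms and the 3 miRNAs outside the cluster, with a mean of at least 100, most correlated with the summed 5p values. The genotypes were compared with limma 3.58.1 in R 4.3.3 (lmFit, eBayes) on log2(value + 1) with genotype and day, fitted on all 592 miRNAs and adjusted by the Benjamini-Hochberg method, so that fold changes are on that scale. The arm ratio was fitted on 179 hairpins, and the genotype by clone term on 592 miRNAs. Pairing came from the labels, in which a day joins 1 library of each genotype of a clone. After group means were taken off, the partners of a day correlated at −0.65 to −0.41. Shares of single miRNAs were tested by exact permutation within days (32 sign patterns). The fit was tested on simulated data, and no result given here rests on that test. Alternatives were the fit without the block, clone as block, all 11 libraries, other pseudocounts (0.1 and 10), other scalings, single days or clones left out, a filter on the mean, limma with trend and untransformed values. Tables and plots were made with Python 3.11.15, pandas 2.3.3, scipy 1.17.1 and matplotlib 3.10.9.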

Additional observations from a re-analysis of the deposited data

Results flagged for a closer look

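Among 38 groups of 5 libraries tested for 1 library far from the other 4, 3 were found, and chance alone gives about 1 in 20. The ratio of miR-290b-5p to miR-290b-3p was highest in the Trim-/- library of day 5 (0.0744), with a gap to the next library of 0.713 of the range. The ratio of miR-294-5p to miR-294-3p was highest in the Trim-/- library of day 1 (0.0233, gap 0.804 of the range) and lowest in the Trimfl/fl library of day 1 (0.00863, gap 0.767). The 2 libraries of day 1 are a mirrored pair and not independent of each other.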

How the results depend on the processing

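The limits are 5 same-day differences and an unknown depth. No 5p arm passed the thresholds except miR-290b-5p without the pair of day 4 and miR-292b-5p (0.64, limma adjusted p = 0.179) with all 11 libraries and no block, so that the count of members past them was 1 in these fits and ranged from 0 to 1 when single days were left out. The day 2 library lay at the Trimfl/fl mean, so the fit with all 11 libraries gained no measurement and its p-values are too small. In the paired fit 0 hairpins passed by arm ratio. Without the replicate block the count was 1 (miR-291b), and it ranged from 0 to 1 when single days were left out. The median difference moved to −0.0076 with libraries divided by totals and to 0.0099 with totals without the cluster. On untransformed values miR-293-5p was 69050 higher in Trim-/- (limma adjusted p = 0.574), past an unadjusted p of 0.05, as was its log2 difference without the replicate block (0.54, limma adjusted p = 0.137), with clone as the block (0.54, 0.211) and with all 11 libraries (0.54, 0.0692). These log2 differences are under the fold threshold, and divided by library totals the difference was 0.28. Fits without the day as block, also those with clone as the block or all 11 libraries, treat the mirrored libraries of a day as independent. Their p-values are therefore too small, for the members and for the arm ratio of miR-291b. Of 162 alternative values of the members' differences, 20 changed sign. In clone E3 alone they were miR-290a-5p (0.14), miR-290b-5p (−0.0031), miR-291a-5p (0.40), miR-292-5p (−0.45) and miR-292b-5p (−0.083), and in clone 1 alone miR-294-5p (−0.038) and miR-295-5p (−0.080). With totals they were miR-291b-5p (−0.0076), miR-294-5p (−0.20) and miR-295-5p (−0.056), with totals without the cluster miR-294-5p (−0.19) and miR-295-5p (−0.038), and with median-of-ratios size factors miR-291a-5p (0.0068). With single days left out, differences ranged from −0.33 to 0.16 in miR-290a-5p, −0.20 to 0.21 in miR-291a-5p, −0.017 to 0.73 in miR-292-5p, −0.13 to 0.26 in miR-294-5p and −0.072 to 0.50 in miR-295-5p. Arm ratio differences ranged from −0.61 to 0.053 in miR-290a, −0.027 to 0.52 in miR-292b, −0.40 to 0.094 in miR-294 and −0.082 to 0.77 in miR-295. Clone terms ranged from −0.94 to 0.044 in miR-290a-5p, −0.19 to 0.48 in miR-291b-5p and −0.70 to 0.085 in miR-294-5p, and with totals they were −0.37 in miR-291b-5p and −0.14 in miR-293-5p. The cause of these changes was not tested. Clone E3 alone leaves 2 pairs, clone 1 alone 3.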
